A study of Homo sapiens with 10 samples.

Results

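The genes described here are 45 members of the lysosomal system, namely membrane proteins, proteases, glycan and lipid enzymes, ion transporters and proton pump subunits, the autophagy receptor gene *SQSTM1*, the progranulin gene *GRN* and the transcription factor genes *TFEB*, *TFE3* and *MITF*. They were chosen by symbol, with earlier results of these data known, and all 45 were found among the 36687 gene symbols of the deposited tables. Of these, 44 passed a filter on low counts that left 15727 genes to be tested, and *CTSF*, with at most 4 counts in any library, did not. RNA was sequenced in bulk from MDA-MB-231 cells, a human triple-negative breast cancer line of the basal B subtype labelled WT, that received dasatinib, an inhibitor of SRC family kinases. The groups were cells at 6, 12, 24 and 48 h of dasatinib and sham cells (0 h), with 2 biological replicates each and 10 libraries in all. The dose, 100 nM, was taken from a figure legend of the study, because the sample labels give none. The labels call the 0 h samples sham in their titles and name the drug in their treatment field, and they were used as the untreated controls. Sham cells kept in culture for 6 to 48 h were not among the samples, so the effect of the drug and that of time in culture cannot be told apart. The cells are a single line in culture, and in bulk RNA a change in the number of expressing cells and a change in RNA per cell cannot be told apart either.

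Lysosomes are acidic compartments in which proteins, glycans and lipids from endocytosis and autophagy are broken down. A proton pump (the V-ATPase) acidifies them, soluble hydrolases carry mannose 6-phosphate tags that direct them there from the Golgi, and heavily glycosylated membrane proteins line their inner surface. TFEB, TFE3 and MITF are related basic helix-loop-helix leucine zipper factors that bind an element built on the E-box CACGTG near the starts of many lysosomal genes. The kinase complex mTORC1 phosphorylates these factors at the lysosome and holds TFEB and TFE3 in the cytoplasm, a control that acts on the proteins and is not read by RNA levels.

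This element was looked for in the windows from 250 bases before to 50 bases after the annotated gene starts (RefSeq, GRCh38.p14), which were at hand for 34 of the 45 members. The motifs counted, nested in one another and searched on both strands, were the E-box CACGTG, its extension TCACGTG and the palindrome TCACGTGA. A gene with several annotated starts was counted once if any of its windows held the motif (52 windows for the 34 members). The palindrome lay in the windows of 5 of the 34 members (14.7%), against 2.04% of the 12160 tested genes with a window and 1.18% of all 27305 genes with a window. The stretches of 100 bases that end just before the start are printed for these 5 genes, because they hold the closest matches among the members and because the genes did not move together. The palindrome is in capitals, and each sequence is written 5′ to 3′ on the strand of the gene. They come from chr13:113297139-113297238 (plus strand) for *LAMP1*, chr16:67481158-67481257 (minus strand) for *ATP6V0D1*, chr17:80101481-80101580 (plus strand) for *GAA*, chr19:7522524-7522623 (plus strand) for *MCOLN1* and chr20:45891235-45891334 (plus strand) for *CTSA*.
LAMP1: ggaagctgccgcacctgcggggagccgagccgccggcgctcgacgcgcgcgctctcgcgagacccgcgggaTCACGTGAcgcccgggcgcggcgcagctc
ATP6V0D1: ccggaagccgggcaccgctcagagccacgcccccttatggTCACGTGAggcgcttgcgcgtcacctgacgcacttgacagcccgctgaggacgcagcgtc
GAA: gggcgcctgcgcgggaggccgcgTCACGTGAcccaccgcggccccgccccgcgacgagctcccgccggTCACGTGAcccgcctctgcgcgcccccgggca
MCOLN1: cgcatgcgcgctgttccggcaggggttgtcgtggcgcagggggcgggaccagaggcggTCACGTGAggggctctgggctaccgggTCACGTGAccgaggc
CTSA: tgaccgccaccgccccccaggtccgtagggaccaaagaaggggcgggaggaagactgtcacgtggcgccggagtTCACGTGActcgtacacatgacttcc

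The E-box CACGTG itself was present in the windows of 9 of the 34 members (26.5%), against 11.8% of tested genes and 8.77% of all genes with a window. TCACGTG was present in 8 members (23.5%), against 6.64% and 4.49%. In *GAA* and *MCOLN1* the palindrome occurred in 2 copies within the stretch shown, and in *LAMP1*, *ATP6V0D1* and *CTSA* in 1 copy. The window of *LAMP1* held a further copy that began 2 bases before the start, so the end of the stretch cut it. At 48 h of dasatinib *GAA* and *CTSA* were higher, *MCOLN1* was lower, and *LAMP1* and *ATP6V0D1* did not pass the test. A match is a description of the letters in this window and does not show that a factor was bound there.

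Library totals ran from 40942913 to 49133774 counts. Replicate 1 at 12 h stood apart: its highest correlation with any other library was 0.955, against 0.983 to 0.987 for the other 9, and 7.12% of its counts fell on mRNAs of the mitochondrial genome, against 4.40% to 6.67%. That share was 6.67% and 6.16% at 48 h, against 5.12% and 4.52% at 0 h, and the share of ribosomal protein mRNAs was 5.42% and 5.23% at 48 h, against 6.67% and 6.68% at 0 h. The part of either in the results at 48 h was not tested. Replicate 1 of 12 h held the lowest value of all 10 libraries for 23 of the 44 tested members. The median difference between the replicates of a time, over these members, was 0.556 on the log2 scale at 12 h and 0.0785 to 0.0937 at the other times. Of 9 breast markers read, *VIM* at 633 to 913 TPM (a level scaled by gene length and library total) and *CD44* at 87.1 to 162 TPM were in keeping with the label. *KRT5* reached at most 0.0341 TPM, *KRT14* 0.43 TPM and *ESR1* 0.144 TPM, and *PGR* had 0 counts. *ERBB2* and *EPCAM*, read as markers of other breast cells, were present at 18.4 to 23.9 TPM and 4.80 to 10.2 TPM. *CD24*, which is low in basal B lines, ran from 3.50 to 22.8 TPM over the libraries and was higher at 48 h than at 0 h, while *VIM* and *CD44* were lower at 48 h (edgeR adjusted p under 0.05 for each). Macrophages and osteoclasts are rich in lysosomal mRNAs, so 8 of their markers were read as well. *AIF1* and *DCSTAMP* had 0 counts in every library and *PTPRC* at most 0.145 TPM. The summed level of the 8 markers was 0.825 and 1.73 TPM at 0 h, 1.30 and 2.29 TPM at 6 h, 1.64 and 2.23 TPM at 12 h, 4.82 and 3.81 TPM at 24 h, and 5.33 and 4.07 TPM at 48 h, with 3 to 5 of the 8 at 0 counts in each library. Of the 4 markers that could be tested, *CD14* was higher at 48 h (log2 fold change 2.48, edgeR adjusted p = 0.0212).

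Among the members, calls for a higher level outnumbered calls for a lower level late in the treatment. At 48 h, 21 of the 44 tested members were higher and 3 were lower than at 0 h, at an adjusted p under 0.05 from edgeR's quasi-likelihood test on the counts. That is 47.7% higher and 6.82% lower, against 16.0% higher and 16.3% lower among all genes tested (32.3% in either direction). The median log2 fold change at 48 h was 0.60 for the members and 0.01 for all genes tested, and 37 of the 44 members had a positive value. Both 48 h libraries lay above both 0 h libraries in 35 members and below both in 7, while 37.7% and 37.3% of all genes did so.

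At 6 h only *SQSTM1* was higher and only *MITF* was lower, with 1.24% of all genes tested higher and 1.49% lower (2.73% in either direction). At 12 h *SQSTM1* and *GM2A* were higher and *CTSC* was lower, against 3.93% and 3.22% of all genes (7.15% in either direction). At 24 h 12 members were higher and 2 lower, against 9.73% and 10.2% of all genes (20.0% in either direction). These counts were close to the background at 6 h and 12 h. The median log2 fold change of the members was 0.17 at 6 h, 0.02 at 12 h and 0.36 at 24 h, and the positive values numbered 35, 22 and 34 of 44. All 12 members that were higher at 24 h were also higher at 48 h, *CTSC* was lower at both, no member was called in opposite directions, and 20 of the 45 members passed the test at no time.

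**Figure D1:**
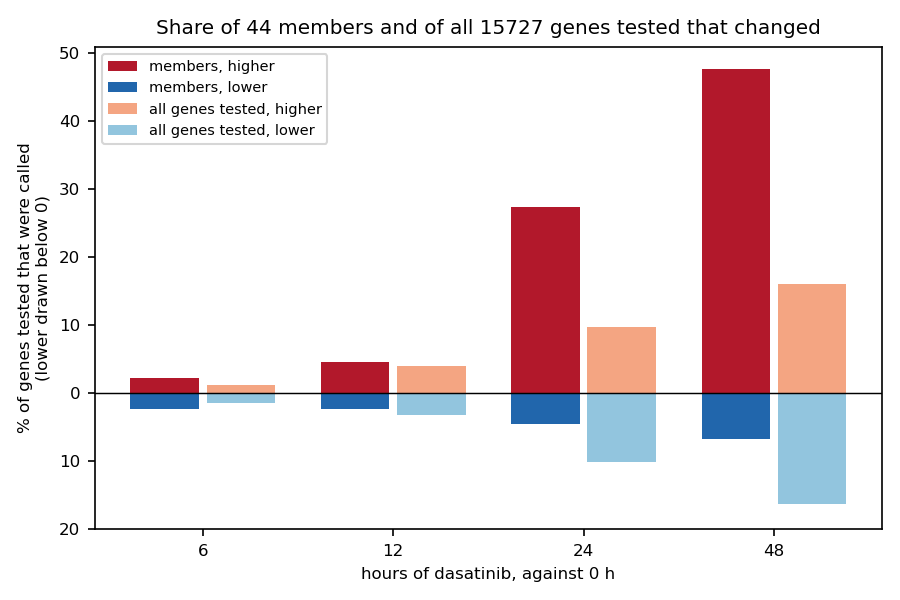
Share of the 44 tested members (darker bars) and of all 15727 genes tested (lighter bars) that were higher (red, above 0) or lower (blue, below 0) than at 0 h, in percent, at each time of dasatinib. At 48 h the bars for higher genes reach 47.7% for members and 16.0% for all genes, and those for lower genes 6.82% and 16.3%.

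These counts moved with the libraries that entered the fit. Without both 12 h libraries the members called numbered 37 at 48 h (31 higher and 6 lower), 36 at 24 h and 15 at 6 h. All calls reported at these times were among them. Of all genes tested, 54.3%, 43.2% and 20.7% were then called. With either 12 h library alone left out, the counts at every time rose, as did the shares of all genes called. At 12 h the direction turned with the library left out: 13 members were higher and 2 lower without replicate 1 (16.9% of all genes called), and 6 were higher and 22 lower without replicate 2 (44.9% of all genes called). At 48 h the count fell without any 1 of the 0 h and 48 h libraries, as did the share of all genes called. Members were still called more often than all genes there. Without any 1 of the 6 h and 24 h libraries the 48 h count changed little, while that share fell. At 24 h and at 12 h the count fell without any 1 library other than those of 12 h, as did the share of all genes. Without 1 of the 0 h or 24 h libraries the share of members called at 24 h was near that of all genes. At 6 h the count fell without any 1 of the 0 h or 6 h libraries, as did the share of all genes. Of the 24 calls at 48 h, 11 were kept under every one of the 19 alternatives tried, namely those of *SCARB2*, *CTSC*, *GAA*, *IDUA*, *MAN2B1*, *PSAP*, *TPP1*, *ASAH1*, *SMPD1*, *LIPA* and *SQSTM1*. At 24 h only the calls of *CTSC* and *SQSTM1* were kept under all of them.

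**Figure D2:**
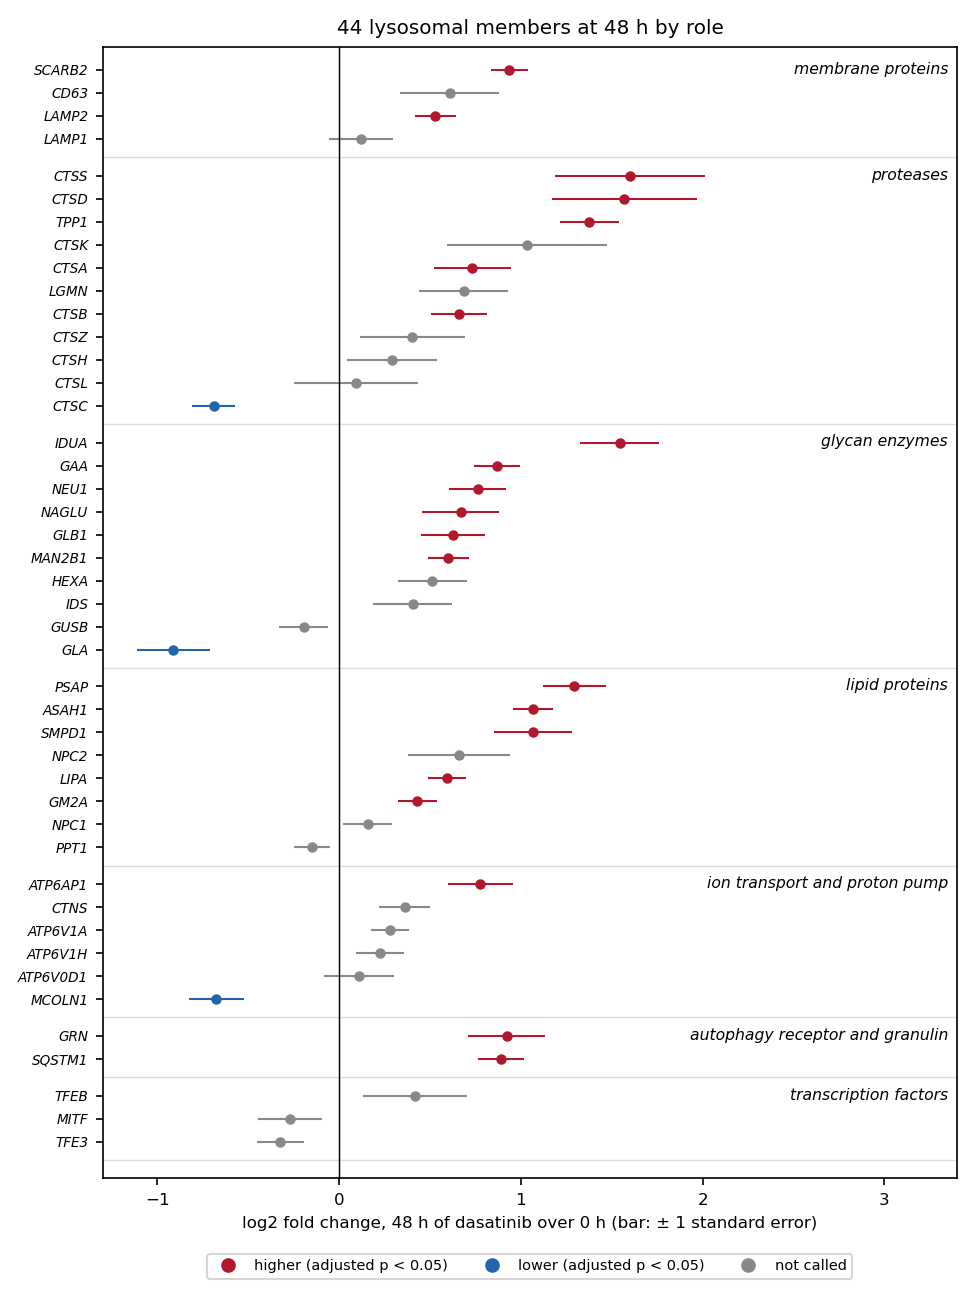
Log2 fold change at 48 h of dasatinib over 0 h for the 44 tested members, grouped by role, with bars of 1 standard error. Red points were higher (21), blue points lower (*CTSC*, *GLA* and *MCOLN1*) and grey points did not pass the test.

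The counts by role at 48 h stand against 16.0% higher and 16.3% lower among all genes tested. Among the 4 membrane proteins, *SCARB2* and *LAMP2* were higher at 48 h, and *LAMP1* and *CD63* did not pass. *SCARB2* encodes LIMP-2, which carries glucocerebrosidase to the lysosome. It had 104 and 102 CPM (read counts scaled to a common library total with TMM factors) at 0 h, 98.9 and 94.0 CPM at 6 h, 106 and 96.1 CPM at 12 h, 152 and 146 CPM at 24 h, and 195 and 197 CPM at 48 h. The 24 h libraries lay above all the earlier ones and the 48 h libraries above those of 24 h. Its log2 fold change was 0.54 at 24 h (edgeR adjusted p = 0.00456) and 0.94 at 48 h (standard error 0.101, edgeR adjusted p = 9.81e-05). The 24 h call was lost without replicate 2 of 0 h (edgeR adjusted p = 0.0555).

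*LAMP2*, a lysosomal membrane glycoprotein with a part in autophagosome fusion and chaperone-mediated autophagy, had 135 and 131 CPM at 0 h, 143 and 135 CPM at 6 h, 166 and 138 CPM at 12 h, 168 and 165 CPM at 24 h, and 186 and 198 CPM at 48 h. Both 48 h libraries were the highest of the 10. The log2 fold change at 48 h was 0.53 (standard error 0.115, edgeR adjusted p = 0.00573), and the call was lost without replicate 2 of 0 h or replicate 2 of 48 h (edgeR adjusted p up to 0.0579). *LAMP1*, its paralog, had 189 and 183 CPM at 0 h, 191 and 190.2 CPM at 6 h, 120.4 and 189 CPM at 12 h, 177 and 188 CPM at 24 h, and 209.8 and 194 CPM at 48 h. The range of 177 to 209.8 CPM outside replicate 1 of 12 h was narrow, and the 48 h value of 0.12 had a standard error of 0.175 (edgeR adjusted p = 0.65). *CD63*, a tetraspanin of late endosomes and exosomes, had 235 and 311 CPM at 0 h, 303 and 329.6 CPM at 6 h, 157 and 328 CPM at 12 h, 348 and 340.3 CPM at 24 h, and 426 and 407 CPM at 48 h. The 48 h libraries were its highest, but the replicates at 0 h and at 12 h were far apart, and the log2 fold change of 0.61 had a standard error of 0.272 (edgeR adjusted p = 0.115).

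Of the 11 tested proteases, 5 were higher at 48 h (*TPP1*, *CTSB*, *CTSD*, *CTSS* and *CTSA*), *CTSC* was lower, and 5 did not pass. That is 45.5% higher and 9.09% lower, against 16.0% and 16.3% of all genes tested. *TPP1*, a peptidase that removes tripeptides from the ends of proteins, had 41.8 and 34.2 CPM at 0 h, 37.8 and 34.3 CPM at 6 h, 52.2 and 38.9 CPM at 12 h, 59.6 and 65.9 CPM at 24 h, and 97.9 and 99.4 CPM at 48 h. It was level through 6 h and stepped up at 24 h and again at 48 h. The change on the log2 scale was 0.72 at 24 h (edgeR adjusted p = 0.00986) and 1.38 at 48 h (standard error 0.161, edgeR adjusted p = 0.000147). The 24 h call was lost without replicate 2 of 0 h or replicate 2 of 24 h (edgeR adjusted p up to 0.107).

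*CTSC*, a dipeptidyl peptidase known for activating the serine proteases of immune cell granules, had 138 and 143 CPM at 0 h, 134 and 136 CPM at 6 h, 85.2 and 105 CPM at 12 h, 80.6 and 83.4 CPM at 24 h, and 83.4 and 90.6 CPM at 48 h. All libraries from 12 h on were below all of those at 0 h and 6 h, without overlap. Against 0 h the log2 change was −0.56 at 12 h (edgeR adjusted p = 0.022), −0.78 at 24 h (edgeR adjusted p = 0.0017) and −0.69 at 48 h (standard error 0.119, edgeR adjusted p = 0.00158). The 12 h call was lost in limma on the TPM, in edgeR on the 2 groups alone and without any 1 library of 0, 6, 24 or 48 h (edgeR adjusted p up to 0.381), while the later calls were kept.

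*CTSD*, the aspartic protease cathepsin D, had 94.4 and 108 CPM at 0 h, 132 and 155 CPM at 6 h, 54.0 and 178 CPM at 12 h, 239 and 249 CPM at 24 h, and 312 and 290.4 CPM at 48 h. The 12 h replicates differed by more than 3 times, and the 24 h and 48 h libraries were above all the others. In the fit its log2 change was 1.27 at 24 h (standard error 0.395, edgeR adjusted p = 0.0475) and 1.57 at 48 h (standard error 0.398, edgeR adjusted p = 0.0128). The 48 h call was lost without any 1 of the 0 h and 48 h libraries (edgeR adjusted p up to 0.101), and the 24 h call in limma on the TPM and without any 1 library other than those of 12 h (edgeR adjusted p up to 0.243).

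*CTSB*, the cysteine protease cathepsin B, had 156 and 159 CPM at 0 h, 177 and 187 CPM at 6 h, 136 and 198 CPM at 12 h, 207 and 209 CPM at 24 h, and 256 and 241 CPM at 48 h. The 48 h libraries were its highest, and all treated libraries but replicate 1 of 12 h were above those of 0 h. The log2 fold change at 48 h was 0.66 (standard error 0.155, edgeR adjusted p = 0.00882), and the call was lost without either 0 h library or replicate 1 of 48 h (edgeR adjusted p up to 0.0747).

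The other proteases were chosen for mention after their values were seen. *CTSA*, the protective protein of neuraminidase and beta-galactosidase, had 132 and 131 CPM at 48 h, against 73.9 and 84.7 CPM at 0 h, a log2 fold change of 0.73 (edgeR adjusted p = 0.0234) that was not called without any 1 of these 4 libraries (edgeR adjusted p up to 0.164). *CTSS*, a protease of antigen-presenting cells, had 2.72 and 2.72 CPM at 48 h, against 0.597 and 1.19 CPM at 0 h, a log2 fold change of 1.60 (edgeR adjusted p = 0.0139). Its call was lost without replicate 1 of 0 h or either 48 h library (edgeR adjusted p up to 0.109), and its level per length was the lowest of the tested members at 0 h, with 0.753 TPM. The summed level of the macrophage and osteoclast markers above was also higher at 48 h than at 0 h in both libraries, while 1 of the 4 tested markers, *CD14*, passed at 48 h and 0 passed at 24 h. Their part in the values of *CTSS* was not tested. *CTSK*, the collagenase of osteoclasts, had 3.94 and 4.24 CPM at 48 h, against 2.44 and 1.56 CPM at 0 h, and its log2 fold change of 1.03 did not pass (edgeR adjusted p = 0.0994). *LGMN* (asparaginyl endopeptidase, 0.68), *CTSZ* (0.40), *CTSH* (0.29) and *CTSL* (0.09) had log2 fold changes at 48 h that did not pass either.

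Of the 10 enzymes of glycan and glycosaminoglycan breakdown, 6 were higher at 48 h, *GLA* was lower, and *HEXA*, *IDS* and *GUSB* did not pass. That is 60% higher and 10% lower, against 16.0% and 16.3% of all genes tested. *IDUA*, the iduronidase of dermatan and heparan sulfate breakdown, had 7.73 and 6.84 CPM at 0 h, 11.9 and 12.4 CPM at 6 h, 6.61 and 10.7 CPM at 12 h, 12.1 and 14.2 CPM at 24 h, and 21.6 and 20.9 CPM at 48 h. All treated libraries but replicate 1 of 12 h were above those of 0 h, and the 48 h libraries stood well above the rest. Relative to 0 h its log2 change was 0.85 at 24 h (edgeR adjusted p = 0.0202) and 1.54 at 48 h (standard error 0.218, edgeR adjusted p = 0.000474). Exons of *IDUA* overlap the gene *SLC26A1*, and the strand setting of the counting is not stated, so reads within the overlap could not be separated. The same holds for exons of *CTSA*, *CTSZ*, *NPC1*, *NPC2* and *CTNS*, which overlap coding genes on the opposite strand. Exons of *CTSD*, *GLB1*, *IDS* and *MAN2B1* overlap coding genes on the same strand, where no strand setting could separate the reads within the overlap.

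*GAA*, the acid alpha-glucosidase that breaks down glycogen, had 56.1 and 55.7 CPM at 0 h, 62.7 and 69.5 CPM at 6 h, 64.1 and 76.9 CPM at 12 h, 82.1 and 76.4 CPM at 24 h, and 109 and 95.2 CPM at 48 h. All treated libraries were above both 0 h libraries. The change on the log2 scale was 0.50 at 24 h (edgeR adjusted p = 0.0195) and 0.87 at 48 h (standard error 0.128, edgeR adjusted p = 0.000611). *MAN2B1*, a lysosomal alpha-mannosidase, had 41.8 and 41.5 CPM at 0 h, 46.2 and 45.1 CPM at 6 h, 42.5 and 47.1 CPM at 12 h, 52.0 and 56.3 CPM at 24 h, and 62.4 and 63.9 CPM at 48 h. Its replicates were close at most times, all treated libraries were above those of 0 h, and the log2 fold change at 48 h was 0.60 (standard error 0.112, edgeR adjusted p = 0.0024).

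*NEU1*, the lysosomal sialidase, had 17.6 and 17.8 CPM at 0 h, 19.8 and 20.3 CPM at 6 h, 18.1 and 23.1 CPM at 12 h, 27.4 and 28.9 CPM at 24 h, and 33.0 and 27.0 CPM at 48 h. The 24 h and 48 h libraries overlapped each other and were above all the others. Against 0 h the log2 change was 0.67 at 24 h (edgeR adjusted p = 0.0135) and 0.76 at 48 h (standard error 0.157, edgeR adjusted p = 0.00447), and the 48 h call was lost without replicate 1 of 48 h (edgeR adjusted p = 0.0596). The 24 h calls of *IDUA*, *GAA* and *NEU1* were lost without any 1 of the 0 h and 24 h libraries (edgeR adjusted p up to 0.159, 0.15 and 0.109). *MAN2B1*, with a log2 fold change of 0.38 at 24 h (edgeR adjusted p = 0.0376), lost that call with no filter on low counts, with the replicate number as a block, and without any 1 library other than those of 12 h (edgeR adjusted p up to 0.262).

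*GLA*, the alpha-galactosidase that removes galactose from globotriaosylceramide, was chosen for mention after its values were seen. It had 39.7 and 42.2 CPM at 0 h, 52.4 and 54.3 CPM at 6 h, 32.4 and 53.9 CPM at 12 h, 31.5 and 30.0 CPM at 24 h, and 20.9 and 22.7 CPM at 48 h. The 6 h libraries were above those of 0 h and the 24 h and 48 h libraries below them. In the fit its log2 change was 0.38 at 6 h (edgeR adjusted p = 0.406) and −0.91 at 48 h (standard error 0.202, edgeR adjusted p = 0.00647), and the 48 h call was lost without replicate 1 of 48 h (edgeR adjusted p = 0.0648). *GLB1*, the lysosomal beta-galactosidase, and *NAGLU*, a heparan sulfate enzyme, had log2 fold changes of 0.63 and 0.67 at 48 h (edgeR adjusted p = 0.0214 and 0.0335). Both calls were lost without any 1 of the 0 h and 48 h libraries, and that of *NAGLU* also without either 6 h library (edgeR adjusted p up to 0.123 for *GLB1* and 0.217 for *NAGLU*). *HEXA* (0.51), *IDS* (0.40) and *GUSB* (−0.19) did not pass, and *IDS* and *GUSB* have related pseudogene copies that may take or give reads.

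Among the 8 lipid proteins, 5 (62.5%) were called higher at 48 h and 0 lower, against 16.0% and 16.3% of all genes tested. *PSAP*, the precursor of the saposins that present sphingolipids to their hydrolases, had 1021 and 1039 CPM at 0 h, 1255 and 1284 CPM at 6 h, 857 and 1270.0 CPM at 12 h, 1492 and 1626 CPM at 24 h, and 2541 and 2512 CPM at 48 h. It was the most abundant member per length, and its 48 h libraries were far above all the others. Relative to 0 h its log2 change was 0.60 at 24 h (edgeR adjusted p = 0.0324) and 1.29 at 48 h (standard error 0.172, edgeR adjusted p = 0.000321). The 24 h call was lost without any 1 library other than those of 12 h (edgeR adjusted p up to 0.21).

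*ASAH1*, the acid ceramidase, had the smallest p of the members at 48 h. It had 55.2 and 51.2 CPM at 0 h, 52.3 and 54.4 CPM at 6 h, 55.5 and 61.3 CPM at 12 h, 80.5 and 75.1 CPM at 24 h, and 109 and 113 CPM at 48 h. The values were flat to 6 h, and the 24 h and 48 h libraries were each above all earlier ones. The change on the log2 scale was 0.55 at 24 h (edgeR adjusted p = 0.00599) and 1.07 at 48 h (standard error 0.11, edgeR adjusted p = 7.48e-05). The 24 h call was lost without replicate 2 of 0 h or replicate 1 of 24 h (edgeR adjusted p up to 0.0817).

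*SMPD1*, the acid sphingomyelinase, had 19.8 and 21.1 CPM at 0 h, 25.9 and 28.8 CPM at 6 h, 16.0 and 27.5 CPM at 12 h, 32.9 and 34.1 CPM at 24 h, and 44.5 and 41.0 CPM at 48 h. All treated libraries except replicate 1 of 12 h were above the 0 h libraries. Against 0 h the log2 change was 0.71 at 24 h (edgeR adjusted p = 0.04) and 1.06 at 48 h (standard error 0.214, edgeR adjusted p = 0.00378). The 24 h call was lost under 9 of the 19 alternatives, among them every fit without 1 library other than those of 12 h. *LIPA*, the acid lipase that frees cholesterol from its esters, had 98.0 and 96.6 CPM at 0 h, 75.1 and 79.4 CPM at 6 h, 93.2 and 82.2 CPM at 12 h, 118 and 113 CPM at 24 h, and 145 and 149 CPM at 48 h. The 6 h and 12 h libraries were below those of 0 h and the 24 h and 48 h libraries above them. In the fit its log2 change was −0.33 at 6 h (edgeR adjusted p = 0.147) and 0.59 at 48 h (standard error 0.105, edgeR adjusted p = 0.00182).

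*GM2A*, the activator of ganglioside breakdown, had 35.4 and 36.1 CPM at 0 h, 39.7 and 42.0 CPM at 6 h, 50.9 and 52.2 CPM at 12 h, 54.2 and 52.3 CPM at 24 h, and 46.5 and 49.8 CPM at 48 h, and was chosen for mention after its values were seen. It was among the 2 members higher at 12 h, where its replicates were close, and its highest values were at 24 h. Relative to 0 h its log2 change was 0.53 at 12 h, 0.58 at 24 h and 0.43 at 48 h (edgeR adjusted p = 0.0203, 0.00486 and 0.0128). The 12 h call was lost in edgeR on the 2 groups alone and without any 1 library other than those of 12 h (edgeR adjusted p up to 0.384), the 24 h call without replicate 1 of 0 h or of 24 h (edgeR adjusted p up to 0.0569), and the 48 h call without any 1 of the 0 h and 48 h libraries (edgeR adjusted p up to 0.109). The cholesterol transporters *NPC1* (0.16) and *NPC2* (0.66) and the thioesterase *PPT1* (−0.15) had log2 fold changes at 48 h that did not pass.

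**Figure D3:**
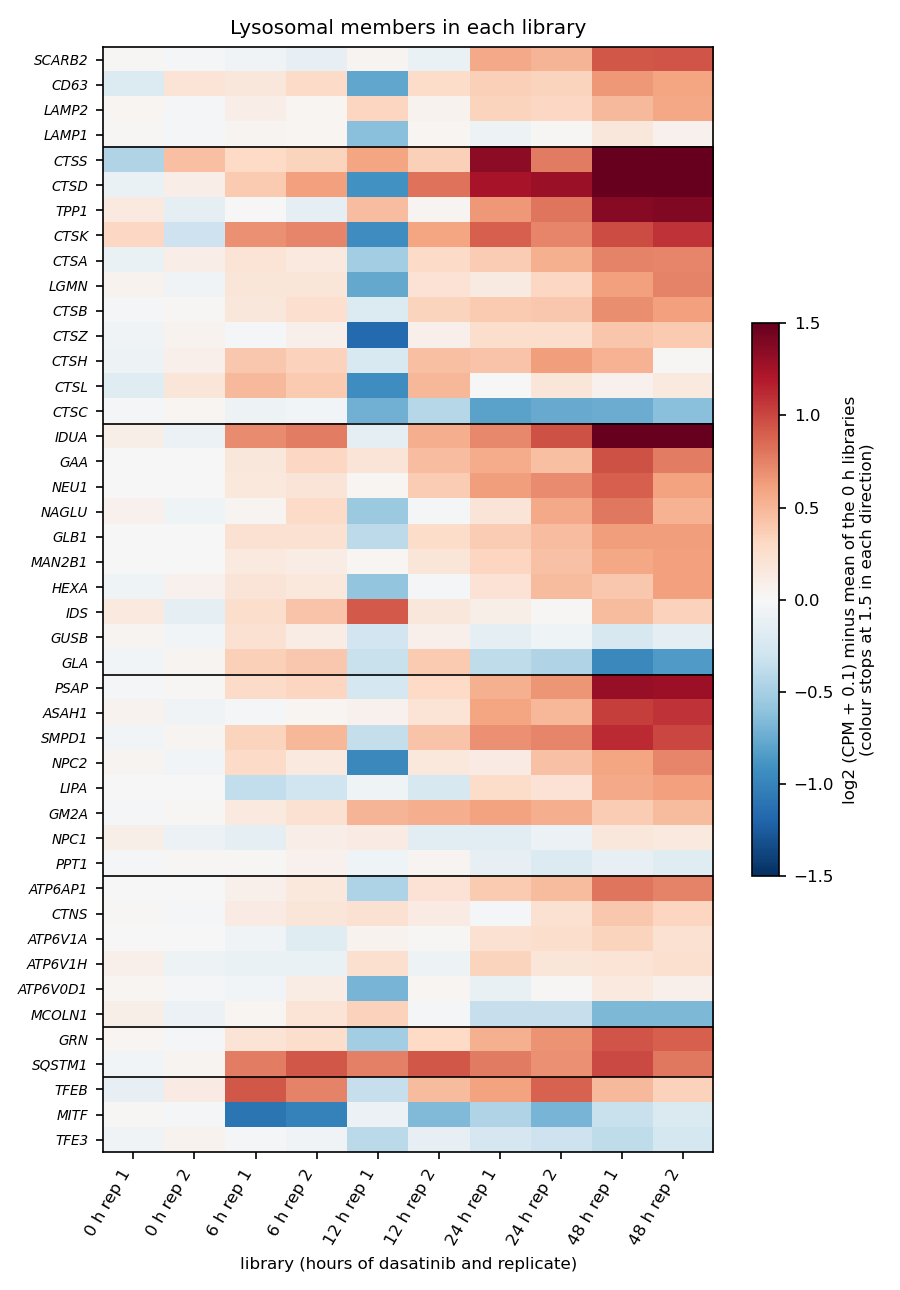
Log2 of CPM plus 0.1 for the 44 tested members (rows, ordered by role as in the plot of log2 fold changes) in each of the 10 libraries (columns), minus the mean of the 0 h libraries. Red columns at 24 h and 48 h show the members that were higher late, and the blue column at 12 h is replicate 1, which was the lowest of 10 libraries for 23 members.

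Of the 6 members of ion transport and the proton pump, *ATP6AP1* was higher at 48 h, *MCOLN1* was lower and 4 did not pass. The share called, 33.3%, was close to the 32.3% of all genes tested. *MCOLN1* encodes TRPML1, the channel that releases calcium from lysosomes. It had 32.7 and 28.8 CPM at 0 h, 31.4 and 35.4 CPM at 6 h, 39.0 and 30.3 CPM at 12 h, 24.0 and 24.0 CPM at 24 h, and 19.3 and 19.2 CPM at 48 h. The 24 h and 48 h libraries were below all the others. The change on the log2 scale was −0.35 at 24 h (edgeR adjusted p = 0.132) and −0.68 at 48 h (standard error 0.151, edgeR adjusted p = 0.0068). The 48 h call was lost without replicate 1 of 0 h or either 48 h library (edgeR adjusted p up to 0.0628), and its exons overlap the gene *PNPLA6*.

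*ATP6AP1*, an accessory protein of the pump, had 91.0 and 90.4 CPM at 0 h, 95.7 and 102 CPM at 6 h, 66.0 and 105 CPM at 12 h, 119 and 126 CPM at 24 h, and 158 and 152 CPM at 48 h. Its log2 fold change at 48 h was 0.78 (standard error 0.179, edgeR adjusted p = 0.00808), a call lost without either 0 h library or replicate 1 of 48 h (edgeR adjusted p up to 0.0651). *ATP6V1A*, the catalytic subunit, had 62.2 and 61.3 CPM at 0 h, 59.3 and 54.5 CPM at 6 h, 64.0 and 62.6 CPM at 12 h, 72.2 and 74.3 CPM at 24 h, and 77.7 and 72.4 CPM at 48 h. Its 24 h and 48 h libraries were above the others, but by little: the log2 fold change at 48 h was 0.28 (standard error 0.105, edgeR adjusted p = 0.0638). *CTNS*, the cystine exporter, had 16.1 and 15.7 CPM at 0 h, 17.3 and 18.0 CPM at 6 h, 18.6 and 17.3 CPM at 12 h, 15.5 and 18.6 CPM at 24 h, and 21.0 and 19.8 CPM at 48 h, and its log2 fold change of 0.36 at 48 h had a standard error of 0.141 (edgeR adjusted p = 0.075). *ATP6V1H* (0.22) and *ATP6V0D1* (0.11) were the nearest to no change at 48 h in this group.

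*SQSTM1*, which encodes the autophagy receptor p62, was the only member called higher at every time. It had 221 and 235 CPM at 0 h, 389 and 436 CPM at 6 h, 385 and 435 CPM at 12 h, 393 and 367 CPM at 24 h, and 452 and 394 CPM at 48 h. All 8 treated libraries were above both 0 h libraries, and the treated times overlapped one another, except that the 48 h libraries lay just above those of 24 h. Against 0 h the log2 change was 0.85 at 6 h (standard error 0.125, edgeR adjusted p = 0.00631), 0.85 at 12 h (edgeR adjusted p = 0.0045), 0.74 at 24 h (edgeR adjusted p = 0.00276) and 0.89 at 48 h (standard error 0.125, edgeR adjusted p = 0.000452). The 6 h call was lost without any 1 of the 0 h and 6 h libraries (edgeR adjusted p up to 0.122) and the 12 h call in edgeR on the 2 groups alone or without either 0 h library (edgeR adjusted p up to 0.233). Exons of *SQSTM1* overlap *MGAT4B* and *MRNIP*.

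*GRN*, the gene of progranulin, a secreted and lysosomal protein, had 254 and 244 CPM at 0 h, 286 and 298 CPM at 6 h, 173 and 305 CPM at 12 h, 359 and 398 CPM at 24 h, and 480.1 and 462 CPM at 48 h. All treated libraries but replicate 1 of 12 h were above those of 0 h. In the fit its log2 change was 0.61 at 24 h (edgeR adjusted p = 0.0697) and 0.92 at 48 h (standard error 0.211, edgeR adjusted p = 0.00764), and the 48 h call was lost without either 0 h library or replicate 1 of 48 h (edgeR adjusted p up to 0.0681).

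None of the 3 transcription factor genes passed at 48 h. *TFEB* had 3.01 and 3.60 CPM at 0 h, 6.36 and 5.60 CPM at 6 h, 2.57 and 4.60 CPM at 12 h, 5.07 and 6.18 CPM at 24 h, and 4.64 and 4.20 CPM at 48 h. The 6, 24 and 48 h libraries were above both 0 h libraries, and those of 12 h overlapped them. It passed at no time, with log2 fold changes of 0.85 at 6 h (standard error 0.287, edgeR adjusted p = 0.176), 0.12 at 12 h, 0.77 at 24 h (edgeR adjusted p = 0.0906) and 0.42 at 48 h (standard error 0.287, edgeR adjusted p = 0.3). Without either 12 h library it passed at 6 h and at 24 h, with an edgeR adjusted p as low as 0.0063 and 0.00648, as it did in edgeR on the 2 groups alone (0.0139 and 0.0127) and, at 24 h, with no filter on low counts (0.0471). It passed at 48 h under none of the 19 alternatives. At 108 to 274 counts a library, *TFEB* was measured less precisely than most members.

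*TFE3* had 50.5 and 54.4 CPM at 0 h, 51.7 and 50.7 CPM at 6 h, 39.6 and 48.1 CPM at 12 h, 44.1 and 42.2 CPM at 24 h, and 40.3 and 43.6 CPM at 48 h. The libraries from 12 h on were below those of 0 h and 6 h. Its log2 fold change was −0.03 at 6 h, stood at −0.26 and −0.28 by 12 h and 24 h, and was −0.32 at 48 h (standard error 0.127, edgeR adjusted p = 0.0783), and without either 12 h library it passed at 48 h (edgeR adjusted p as low as 0.00334). Per length, *TFE3* stood at 42.6 TPM, *MITF* at 30.6 TPM and *TFEB* at 2.00 TPM at 0 h.

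*MITF*, best known as the factor of melanocytes and osteoclasts, had 64.8 and 63.6 CPM at 0 h, 30.0 and 31.8 CPM at 6 h, 60.4 and 40.6 CPM at 12 h, 47.0 and 39.6 CPM at 24 h, and 51.1 and 55.2 CPM at 48 h. The 6 h libraries were the lowest and did not overlap any other, all treated libraries were below those of 0 h, and the 12 h replicates were far apart. Relative to 0 h its log2 change was −1.05 at 6 h (standard error 0.178, edgeR adjusted p = 0.0123), −0.35 at 12 h (edgeR adjusted p = 0.255), −0.57 at 24 h (edgeR adjusted p = 0.0464) and −0.27 at 48 h (edgeR adjusted p = 0.269). The 6 h call was lost without any 1 of the 0 h and 6 h libraries and in limma on log2(TPM + 1) with no filter. The 24 h call was lost without any 1 library other than those of 12 h, and also with RLE size factors or in limma on the TPM. Without replicate 1 of 12 h the 12 h value was −0.66 and passed (edgeR adjusted p = 0.000238), and the 48 h value passed without either 12 h library (edgeR adjusted p = 0.0168 and 0.0153).

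**Figure D4:**
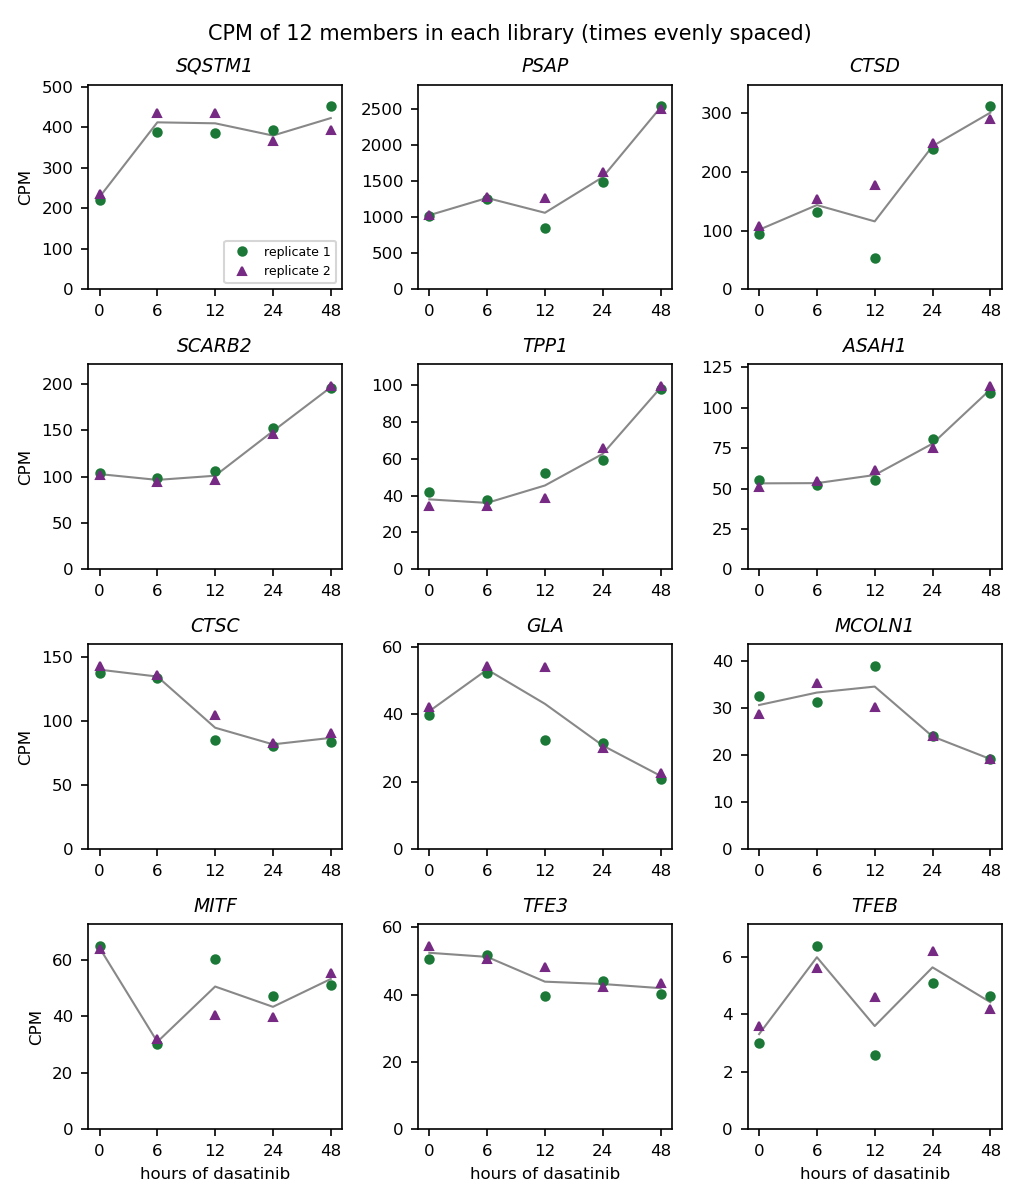
CPM of 12 members in each library against hours of dasatinib (evenly spaced, axes from 0), with circles for replicate 1, triangles for replicate 2 and a line through the means. *SQSTM1* is higher from 6 h on, *PSAP*, *CTSD*, *SCARB2*, *TPP1* and *ASAH1* climb at 24 h and 48 h, *CTSC*, *GLA* and *MCOLN1* end lower, and *MITF* is lowest at 6 h, with 30.0 and 31.8 CPM.

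The 48 h libraries were also compared with those of 6 h, a difference of means that takes no 0 h value, although the 0 h libraries enter the fit. Of the 44 members 17 were higher and 3 were lower at 48 h than at 6 h, against 16.2% and 17.0% of all genes tested (33.2% in either direction), and the median log2 difference was 0.40. Without both 12 h libraries the count was 35, with 54.2% of all genes tested called. It fell without any 1 library other than those of 12 h, as did the share of all genes called. Without 1 of the 6 h or 48 h libraries it was near that background. The largest difference was that of *TPP1*, with 97.9 and 99.4 CPM at 48 h, against 37.8 and 34.3 CPM at 6 h (log2 fold change 1.45, edgeR adjusted p = 0.000107). *SQSTM1* differed by 0.04 between these times (edgeR adjusted p = 0.855), and *MITF* was higher by 0.78 at 48 h than at 6 h (edgeR adjusted p = 0.00702, and up to 0.0606 without replicate 1 of 6 h or replicate 2 of 48 h).

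The share of the transcriptome held by the members was read from the deposited TPM. The 45 members summed to 3497 and 3706 TPM at 0 h, 4222 and 4161 TPM at 6 h, 3167 and 4482 TPM at 12 h, 4904 and 5425 TPM at 24 h, and 6690 and 6829 TPM at 48 h. The sum was highest at 48 h, and the 12 h replicates lay on either side of those at 0 h. The mean at 48 h, 6759 ± 98.2 (SD, n = 2), was 1.88 times that at 0 h, 3602 ± 148 (SD, n = 2). *PSAP* alone made up 42.0% and 42.3% of the sum at 48 h, against 31.0% and 30.3% at 0 h. Without *PSAP* the mean was 3912 at 48 h and 2498 at 0 h, a ratio of 1.57. Membrane proteins summed to 803 and 806 TPM at 48 h, against 481 and 583 TPM at 0 h, and proteases to 1155 and 1180 TPM, against 650 and 722 TPM. The 3 transcription factor genes summed to 61.7 and 69.0 TPM at 48 h, against 73.1 and 77.3 TPM at 0 h.

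**Figure D5:**
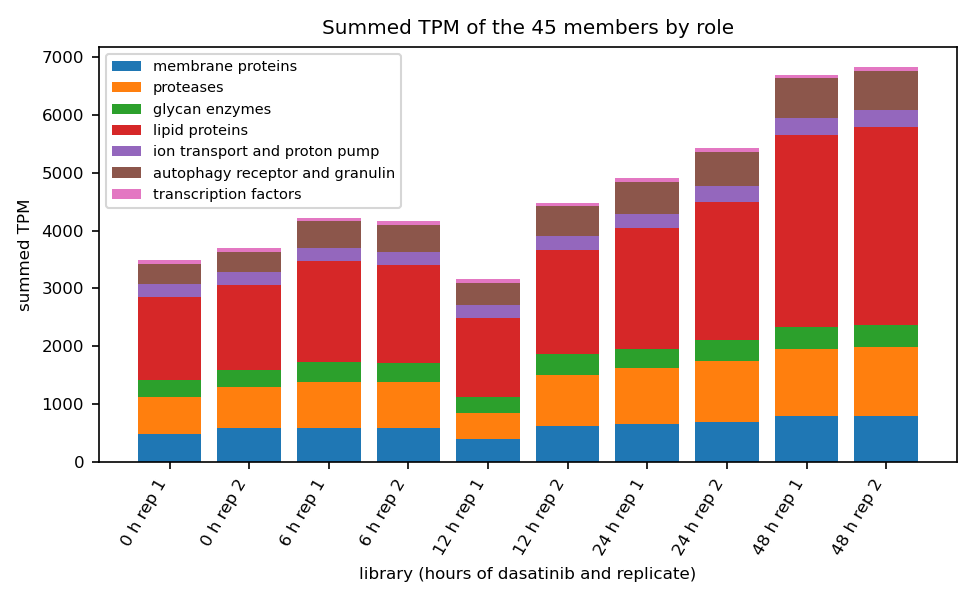
Summed TPM of the 45 members in each library, stacked by role. The sum is 6690 and 6829 TPM at 48 h, against 3497 and 3706 TPM at 0 h, and the lipid proteins, chiefly *PSAP*, take the largest part of every bar.

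Other genes of the pathway were taken from 5 lists by function. Of 35 tested lysosomal enzymes and membrane proteins outside the 45 members, 17 (48.6%) were called higher and 0 lower at 48 h, against 16.0% and 16.3% of all genes tested, with a median log2 fold change of 0.65. The endolysosomal cation channel gene *TPCN1* had 182 ± 10.8 CPM at 48 h and 52.6 ± 3.13 CPM at 0 h (SD, n = 2 each), giving a log2 fold change of 1.79 (edgeR adjusted p = 4.91e-06). *FUCA1*, the alpha-fucosidase, had 49.7 ± 2.44 CPM and 12.4 ± 0.629 CPM (edgeR adjusted p = 1.39e-05), and the glycoprotein gene *GPNMB* had 22.7 ± 0.375 CPM and 5.24 ± 0.214 CPM (log2 fold change 2.12, edgeR adjusted p = 3.41e-05). Each of these genes was above its 0 h level by more than 3 times at 48 h. The 17 calls became 23 without both 12 h libraries, when 54.3% of all genes were called. They were fewer without any 1 of the 0 h or 48 h libraries, as were the calls among all genes.

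Of 18 other proton pump subunits tested, *TCIRG1* was higher and *ATP6V0E2* was lower at 48 h (11.1% called, against 32.3% of all genes tested), and the median was 0.02. *ATP6V0E2* had 32.7 ± 3.29 CPM at 48 h and 61.8 ± 4.20 CPM at 0 h (SD, n = 2 each), giving a log2 fold change of −0.92 (edgeR adjusted p = 0.000911). *TCIRG1* had a log2 fold change of 0.41 (edgeR adjusted p = 0.0175) and *ATP6V1D* of −0.26 (edgeR adjusted p = 0.0655). Without both 12 h libraries 9 of the 18 passed, with 54.3% of all genes called. Fewer passed without any 1 of the 0 h or 48 h libraries.

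In the list of mannose 6-phosphate tagging and sorting, 2 of 12 tested genes passed at 48 h (16.7%, against 32.3% of all genes tested), the receptors that read the tag, in opposite directions. *IGF2R*, the larger receptor, was higher at 48 h, with 256 ± 17.9 CPM, against 127 ± 5.48 CPM at 0 h (SD, n = 2 each, edgeR adjusted p = 0.000329). *M6PR*, the smaller receptor, was lower, with 59.8 ± 0.105 CPM at 48 h and 84.2 ± 6.04 CPM at 0 h (log2 fold change −0.49, edgeR adjusted p = 0.00572). The sorting receptor *SORT1* had 0.38 (edgeR adjusted p = 0.0595). Without both 12 h libraries 7 of the 12 passed, with 54.3% of all genes called. Fewer passed without replicate 2 of 0 h or replicate 1 of 48 h.

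Of 21 genes of mTORC1, the Rag GTPases and folliculin, *TSC1*, *TSC2*, *RRAGA* and *FLCN* were higher and *MLST8* and *RHEB* lower at 48 h, with a median of 0.07. The share called, 28.6%, was below the 32.3% of all genes tested. *MLST8*, a subunit of the mTOR complexes, had a log2 fold change of −0.81 (edgeR adjusted p = 0.00494). The mTORC1 inhibitor genes *TSC2* and *TSC1* had 0.65 and 0.41 (edgeR adjusted p = 0.00861 and 0.0191). The count of 6 became 13 without both 12 h libraries (54.3% of all genes called). It was lower without any 1 of the 0 h or 48 h libraries, as was the share of all genes.

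Of 27 tested genes of the autophagy machinery, 10 were higher and *ATG3* was lower at 48 h, with a median of 0.30. The shares were 37.0% higher and 3.70% lower, against 16.0% and 16.3% of all genes tested. *ULK1*, the kinase that starts autophagy, had 59.0 ± 1.55 CPM at 48 h and 26.4 ± 0.546 CPM at 0 h (log2 fold change 1.16, edgeR adjusted p = 8.43e-05), and it was the only gene of this list that passed at 6 h. *WIPI1*, which binds the growing membrane, had 38.6 ± 1.32 CPM and 17.1 ± 0.529 CPM (log2 fold change 1.18, edgeR adjusted p = 0.000149). *ATG3*, an enzyme of LC3 lipidation, had 47.4 ± 0.262 CPM and 89.9 ± 0.958 CPM (log2 fold change −0.92, edgeR adjusted p = 0.000101). In these sentences the SD is over 2 libraries at each time. The count of 11 became 16 without both 12 h libraries (54.3% of all genes called). It was lower without any 1 of the 0 h or 48 h libraries, as was the share of all genes.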

How the data were processed

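RNA-seq libraries of MDA-MB-231 cells at 0, 6, 12, 24 and 48 h of dasatinib were analysed, 2 biological replicates each. According to the submitters' processing notes and the study's methods, reads were checked with FastQC and MultiQC, trimmed with Trim Galore, aligned to hg38 with STAR 2.5.2b and counted per gene with featureCounts. The annotation and strand setting are not given in the sources used here. The authors deposited raw counts per gene symbol, not normalized, and a second table in which the authors had scaled these to TPM.

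The tests were run on the counts with edgeR 4.0.16 under R 4.3.3: filterByExpr by group, TMM factors, a mean per group over all 10 libraries, robust quasi-likelihood tests and Benjamini-Hochberg adjustment over the 15727 genes tested, at a threshold of 0.05. The standard error is the log2 fold change divided by the square root of F. P-values measure the spread between replicates of 1 cell line. Members and lists were chosen with earlier results of these data known. Library values and statistics are given for the transcription factors, for the 4 members of each role (2 for *SQSTM1* and *GRN*) with the smallest p at 48 h, and for members called at 6 h, and statistics for the 3 genes of each other list with the smallest p. Genes named beyond this rule were chosen after their values were seen.

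Alternatives were a threshold of 0.01, no filter, RLE size factors, DESeq2 1.42.0, the 2 groups alone, a replicate block, limma 3.58.1 on log2(TPM + 1) and log2(TPM + 0.1) with at least 1 TPM in 2 libraries, a pseudocount of 1 with no filter, both 12 h libraries left out, and each library left out in turn. A group left with 1 library was assumed to vary like the others. Promoter windows come from RefSeq (GRCh38.p14). Overlaps of exons were read from GENCODE on GRCh38: 12 of the 45 members overlap another coding gene.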

Additional observations from a re-analysis of the deposited data

Results flagged for a closer look

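For 20 members the change against 0 h was not the same at 48 h as at 6 h, by edgeR's test of the difference itself (adjusted p under 0.05). Since both changes are taken from the same 0 h libraries, this difference equals that between the 48 h and the 6 h libraries. It was positive, on the log2 scale, for *TPP1* (1.45), *CTSS* (1.33), *ASAH1* (1.06), *SCARB2* (1.03), *PSAP* (0.99), *LIPA* (0.92), *IDUA* (0.80), *MITF* (0.78), *GRN* (0.69), *ATP6AP1* (0.66), *SMPD1* (0.65), *GAA* (0.63), *NEU1* (0.58), *MAN2B1* (0.47), *LAMP2* (0.47), *CTSB* (0.45) and *ATP6V1A* (0.40). It was negative for *CTSC* (−0.63), *MCOLN1* (−0.80) and *GLA* (−1.29). All but *MITF* lay closer to 0 h at 6 h than at 48 h in their fitted values. Of these 20 differences, 8 kept an adjusted p under 0.05 under all 19 alternatives, those of *SCARB2*, *CTSC*, *GLA*, *PSAP*, *TPP1*, *ASAH1*, *LIPA* and *MCOLN1*, and the other 12 lost it when 1 of the libraries was left out.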

How the results depend on the processing

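The reported counts of members called (in time order 2, 3, 14 and 24 against 0 h, and 20 for 48 h against 6 h) moved most with the libraries in the fit. With each library left out in turn they ranged over 0–15, 0–28, 3–36, 12–37 and 8–35, and without both 12 h libraries they were 15 for 6 h, 36 for 24 h, 37 for 48 h and 35 for 48 h against 6 h. In edgeR on the 2 groups alone the counts were 11 at 6 h, 0 at 12 h (3 members at an unadjusted p under 0.05, and 3 called by DESeq2), 34 at 24 h, 36 at 48 h and 35 for 48 h against 6 h. The shares of all genes called there were 20.5%, 0%, 43.9%, 55.1% and 56.7%. A threshold of 0.01 gave 1, 1, 6, 18 and 11, with 1%, 2.09%, 10.5%, 19.4% and 20.2% of all genes called. The filter moved the 6 h count, with 4 members without it in edgeR and 1 in limma on log2(TPM + 1) without it. Of all genes, 3.97% and 0.767% were called in these fits. RLE size factors, DESeq2 and limma with the filter stayed within 1.5 times of every count, with 25, 29 and 26 members at 48 h. Where a count at 6 h was 0 with a library left out, 3 to 5 members had an unadjusted p under 0.05. Single members were followed under the alternatives only where they were called, besides *TFEB*, *TFE3* and *MITF* in every comparison. Of these 1419 values, 1191 kept their direction and side of the threshold, 198 lost the threshold and 3 reversed. The rest, uncalled values of *TFEB*, *TFE3* or *MITF*, gained the threshold. Other uncalled members were not in this tally. The 3 reversals were all in uncalled genes: *TFE3* at 6 h ran from −0.088 to 0.013 on the log2 scale with a library left out (positive without replicate 2 of 0 h), and *TFEB* at 12 h from −0.371 to 0.483 (−0.0112 without replicate 1 of 0 h and lowest without replicate 2 of 12 h). The replicate numbers did not pair the libraries: over 10 pairs the correlation of same-numbered libraries ran from −0.0368 to 0.104, above 0.1 in 1. With the replicate block the counts were 2, 3, 13, 26 and 22, with 2.44%, 6.55%, 19.5%, 32.1% and 33.2% of all genes called. With 2 libraries a group, small changes and genes of few counts such as *TFEB* and *CTSS* limit what can be called. The causes of these moves were not tested.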
